A study of Mus musculus with 2 samples.

Results

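Mature neutrophils of the inflamed mouse temporomandibular joint (TMJ) were picked from droplet single-cell RNA-seq by their transcripts. A kept barcode counted as one when it held at least 3 UMIs over the receptor genes Cxcr2, Csf3r and Il1r2, at least 0.5% of its UMIs from S100a8 and S100a9, and under 0.3% from the granule genes Ngp, Camp and Ltf. A UMI (unique molecular identifier) marks 1 captured transcript, and kept barcodes had at least 500 genes and under 10% mitochondrial UMIs. By this rule 371 of 10109 kept cells were mature neutrophils, 163 of 4352 in WT and 208 of 5757 in the Prox1 mutant.

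The WT library came from the TMJ of C57BL/6 mice of WT genotype, and the other from C57BL/6 mice labelled Prox1 mutant. The methods name C57BL/6J mice, and give the mutants as heterozygous (Prox1+/-) and from a different source. Prox1 is needed for the identity of lymphatic endothelial cells. Both groups were 8 to 10 weeks old, female, and had received complete Freund's adjuvant (CFA), a killed mycobacterial emulsion that inflames the joint, by injection into it, so no joint without CFA was analysed here. The number of mice behind a library, and the time since injection, are not given in the sources used here. Each genotype had 1 library and thus no replicate, so no test between genotypes was possible, and every interval below is a 95% interval that covers counting error only.

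Neutrophils are made in the bone marrow, where precursors fill their granules in sequence. Transcripts of the azurophil granule proteins (Elane, Mpo) come first, those of specific granules (Ltf, Ngp, Camp) next and those of gelatinase granules (Mmp8, Mmp9) last. A mature cell has largely shut off the early granule genes, carries the chemokine receptor Cxcr2 and the G-CSF receptor Csf3r, leaves the blood toward chemokines such as CXCL2, and at an inflamed site releases IL-1β and further chemokines.

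Mature neutrophils made up 3.75% of kept cells in WT (exact Clopper-Pearson interval 3.20 to 4.35%), and their share in the mutant was 3.61% (3.15 to 4.13%). The mutant share was 0.132 percentage points below that of WT, with a Newcombe interval from -0.888 to 0.602, so no difference was detectable at these limits and this depth. Granule-rich neutrophils, with the same S100 limit but at least 1% of UMIs from Ngp, Camp and Ltf, were 156 cells (3.58%) in WT and 454 cells (7.89%) in the mutant. Among both neutrophil classes together, mature cells were therefore 51.1% (45.5 to 56.7%) of WT and 31.4% (27.9 to 35.1%) of mutant neutrophils, which is 19.7 points lower (interval of the difference -26.1 to -13.1). The balance of the neutrophil classes thus differed between the libraries beyond counting error. For the share of mature cells the answer depended on the limits, since with granule genes under 0.1% of UMIs the difference was -0.808 points (-1.49 to -0.15), and with 1000 genes and 5% mitochondrial UMIs as the filter it was 0.911 points (0.0211 to 1.79). The granule-rich class differed in make-up as well, with over 1% haemoglobin UMIs in 2 WT and 224 mutant cells, 3 or more C1q UMIs in 18 and 109, a median S100 share of 20.9 and 9.29% and a median granule share of 7.90 and 3.01%. The part of these differences in the balance was not tested.

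The receptor limit weighed differently on the libraries. Of cells that met the S100 and granule limits, 163 of 180 in WT (90.6%, 85.3 to 94.4%) also met the receptor limit, against 208 of 801 in the mutant (26.0%, 23.0 to 29.2%). The 593 mutant cells that failed it had a median of 1643 UMIs, 22.6% haemoglobin UMIs and an S100 share of 0.703%. The 17 such WT cells had a median of 3195 UMIs, 0.0495% haemoglobin UMIs and an S100 share of 0.724%. The S100 share was thus just above the limit in both libraries. Free transcripts in the suspension reach every droplet, and the B lineage cells (at least 3 UMIs of Cd79a and Cd79b), which should lack S100 transcripts, held a median of 0.019% of them in WT and 0.0378% in the mutant. The part of free RNA and depth in the mutant cells without receptors was not tested. With the rule applied after thinning to 2000 UMIs, which left out 509 WT and 1269 mutant kept cells as too shallow, among them 373 of the 593, mature neutrophils were 114 of 3843 WT cells (2.97%) and 135 of 4488 mutant cells (3.01%).

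The number of cells near the limits differed between the libraries. At exactly 3 receptor UMIs lay 8 WT and 15 mutant members, and at 2 UMIs, just outside, lay 2 and 54 cells. With an S100 share from 0.5 to 0.75% there were 13 and 20 members, and from 0.25 to 0.5% there were 20 and 22 cells outside. With a granule share from 0.2 to 0.3% there were 7 and 28 members, and from 0.3 to 0.4% there were 5 and 12 cells outside. The mutant members thus crowded the granule limit more than the WT members, of which 71 held no UMI of the granule genes, against 31 in the mutant.

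The members' depth was uneven within each library. UMIs per cell had a 10th percentile, median and 90th percentile of 1894, 4128 and 20989 in WT and of 1376, 5905 and 33526 in the mutant, with a median of 1376 and 1704 genes. The S100 share ran from 0.906 through 4.00 to 17.9% in WT and from 0.774 through 4.19 to 20.3% in the mutant at the same percentiles. In total 1436329 WT and 2598438 mutant UMIs stand behind the levels given below. Levels are UMIs summed over the cells of a class per 1000000 UMIs of that class (CPM), and ratios are log2 of mutant over WT with a conditional exact binomial interval. Where a pair of values is given, WT comes first and the mutant second. Of 10 cell barcodes that occurred in both libraries, 1 was a mature neutrophil in either library and 0 were in both.

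**Figure D1:**
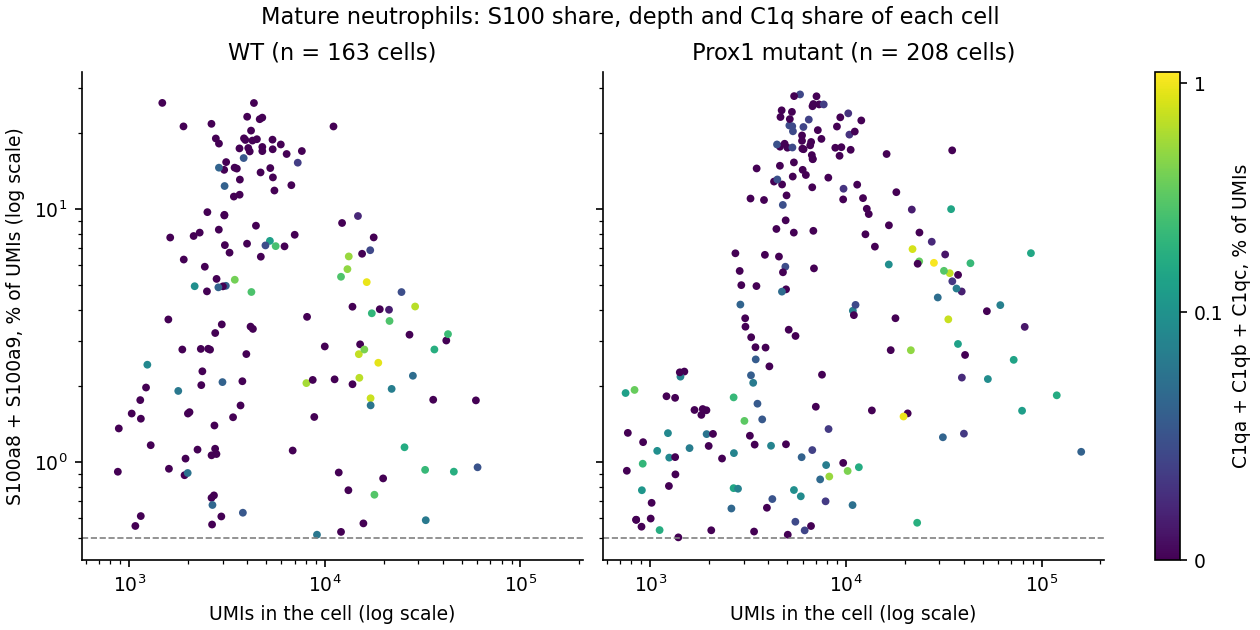
Each point is 1 mature neutrophil (left WT, right Prox1 mutant), with its total UMIs on the log x axis and the share of UMIs from S100a8 and S100a9 in percent on the log y axis; colour gives the share of UMIs from C1qa, C1qb and C1qc, and the dashed line is the 0.5% limit. Most cells of high C1q share lie among the deeper cells to the right, and the S100 share spans from the limit to over 10% in both libraries.

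The name mature neutrophils fitted the marker genes in most cells, with a mixed remainder. Retnlg, which encodes a resistin-like protein of neutrophils and was the given marker that the rule did not use, had a UMI in 127 of 163 WT cells (77.9%) and in 172 of 208 mutant cells (82.7%). Among granule-rich neutrophils 122 of 156 WT cells (78.2%) and 272 of 454 mutant cells (59.9%) had one, so in WT the unthinned share did not separate the classes. Its level was 7195 CPM (7057 to 7335) and 6192 CPM (6096 to 6288). In the same libraries it was at 2788 and 1929 CPM in granule-rich neutrophils, at 185 and 111 CPM in C1q macrophages (in neither neutrophil class, with 3 or more UMIs summed over C1qa, C1qb and C1qc), and at 10.8 and 6.99 CPM in B lineage cells. Retnlg was thus highest in mature neutrophils in both libraries. The receptor and S100 genes of the rule were within 2-fold between genotypes, with Cxcr2 at 419 and 423 CPM, Csf3r at 686 and 729 CPM, Il1r2, the decoy receptor for IL-1, at 1275 and 1551 CPM, and S100a8, a subunit of calprotectin, at 20773 and 27270 CPM. The granule genes of the rule were more than 2-fold apart, with Ltf at 41.8 and 150 CPM, Camp at 53.6 and 178 CPM and Ngp at 189 and 390 CPM. Those values describe the choice of cells.

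A part of the cells also held macrophage transcripts. Of the members, 31 WT cells (19.0%) and 41 mutant cells (19.7%) held at least 3 UMIs of the C1q genes, the complement components that mark tissue macrophages. They were deep, with a median of 17136 and 28161 UMIs against 3501 and 5097 in the other members, so they held 44.7% of the WT and 53.4% of the mutant members' UMIs. Over the 9 macrophage markers the summed level was 2330 and 2186 CPM, against 5271 and 5760 CPM in C1q macrophages, and no marker was at 0. The most abundant was C1qb at 509 and 347 CPM. Without the cells at the C1q limit, C1qa was at 6.30 and 18.2 CPM and Retnlg at 10084 and 9504 CPM. The source of these C1q UMIs was not tested. Scrublet, a doublet caller, marked 0 cells at its automatic threshold in either library. When its top scores were marked at the rate that the kit's loading gives, 10 of the WT members (6.13%) and 28 of the mutant members (13.5%) were among them, of which 1 and 12 were at the C1q limit. Of all barcodes scored, 239 of 5469 (4.37%) in WT and 462 of 7603 (6.08%) in the mutant were marked.

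A further 35 WT and 33 mutant members held neither a Retnlg UMI nor 3 C1q UMIs. Their S100 share had a median of 1.39 and 1.03%, against 7.92 and 9.30% in members with Retnlg and under the C1q limit. Those 97 WT and 134 mutant cells with Retnlg had the highest median S100 share of these groups. Markers of other cell types ranged widely. The 6 monocyte markers summed to 2499 and 2356 CPM, close to 2919 and 2885 CPM in C1q macrophages, with Fn1 the most abundant at 1044 and 899 CPM. The 6 mesenchymal markers summed to 1026 and 873 CPM, above the 376 and 719 CPM of C1q macrophages. The 6 B lineage markers summed to 380 and 374 CPM, with Ebf1 the most abundant, against 13723 and 10995 CPM in B lineage cells. The part of these markers of other cell types in the results below was not tested. Granulocyte markers of other kinds were lower, with the 7 mast cell and basophil markers at 3.48 and 14.2 CPM in sum and the 6 eosinophil markers at 5.57 and 6.16 CPM, and none of these 13 genes reached 200 UMIs. Fcer1a, Cma1 and Il5ra were at 0 in both libraries. The 6 endothelial markers summed to 49.4 and 144 CPM, and Prox1 itself had 1 WT and 0 mutant UMIs in mature neutrophils. Over all kept cells Prox1 had 563 UMIs (11.6 CPM) in WT and 315 UMIs (5.80 CPM) in the mutant. These levels are pooled over cells whose make-up differed between the libraries, and the level within the cells that express Prox1 was not compared.

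Haemoglobin transcripts differed between the libraries in every class. The 7 erythroid markers of mature neutrophils summed to 5630 and 21497 CPM, with Hbb-bs, a β-globin, the most abundant at 2928 and 10246 CPM. Over 1% haemoglobin UMIs were found in 2 WT and 40 mutant members, and in 339 and 2676 of all kept cells. In the B lineage cells the erythroid markers were at 294 and 39333 CPM, so the difference was not particular to neutrophils. With the cells over 1% haemoglobin left out, 66 genes were at least 2-fold higher in the mutant and 35 lower, of 3101 compared. Of these, 58 and 32 were among the 76 and 34 counted with all members. Among the named genes 14 moved by more than their counting interval and 114 did not. The log2 ratio of Hbb-bs was 0.88 in place of 1.81. The part of haemoglobin transcripts in the results below was not tested further.

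**Figure D2:**
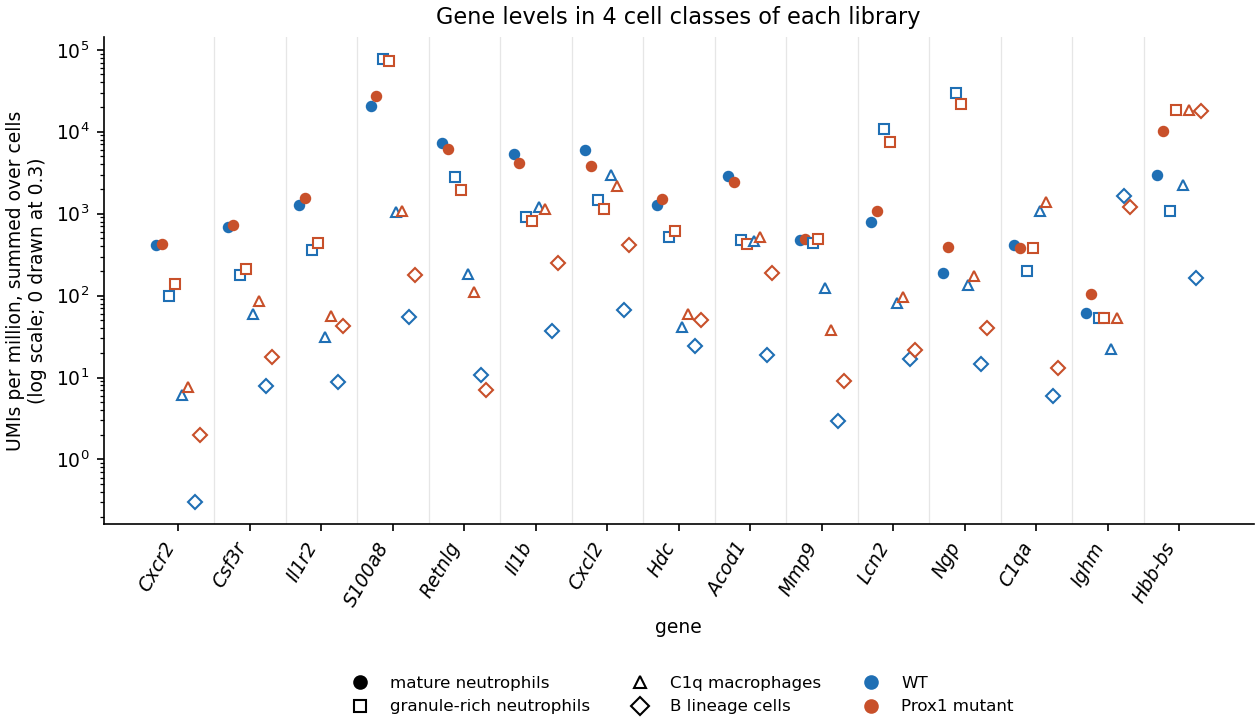
Levels of 15 genes in CPM on a log axis (0 drawn at 0.3) in mature neutrophils, granule-rich neutrophils, C1q macrophages and B lineage cells, with WT and Prox1 mutant as separate points. Retnlg, Il1b, Cxcl2, Hdc and Acod1 are higher in mature neutrophils than in each other class in both libraries, while Lcn2 and Ngp are higher in granule-rich cells.

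What set mature cells apart from granule-rich ones beyond the rule was described in each library. Among 6008 genes with at least 200 UMIs over both classes, the rule genes left out, 446 (7.42%) were at least 2-fold higher in mature cells in both libraries and 275 (4.58%) at least 2-fold lower. The median log2 ratio over all genes was 0.18 in each library. Since 2 libraries of different genotype are not replicates, these are descriptions with no test.

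Specific granule and cell cycle genes were lower in the mature class. Fcnb, which encodes the lectin ficolin B of immature myeloid cells, was at 11.1 and 18.5 CPM, against 492 and 459 CPM in granule-rich cells. Cebpe, the transcription factor of the specific granule stage, was at 6.27 and 12.7 CPM against 314 and 220 CPM. Chil3, a chitinase-like protein of myeloid precursors, was 22.5-fold lower in WT and 13.7-fold lower in the mutant, and Serpinb1a, an inhibitor of neutrophil elastase, 25.4-fold and 12.5-fold lower. Of the specific granule list outside the rule, all 6 genes compared were at least 2-fold lower, against 4.58% of all genes. The same list holds Ltf, Ngp and Camp, whose limits set the classes apart, and how far this count follows from that choice was not tested. The 6 were Cebpe, Chil3, Cd177, Anxa1, Ltb4r1, which the chemoattractant receptor list holds too, and Lcn2. Lcn2, which encodes neutrophil gelatinase-associated lipocalin, was at 785 and 1072 CPM against 10950 and 7543 CPM. Of the 10 cell cycle genes 8 were at least 2-fold lower and none higher. The azurophil granule genes, the earliest of the granule sets, had 0 of 6 past 2-fold in level in both libraries in either direction, with a median log2 ratio of -1.28 in WT and 0.67 in the mutant. Most Elane UMIs of the mature class lay in 1 cell of each library, as given below, so its summed level says little of the other cells. After thinning to 2000 UMIs, Elane was in 0.709 and 6.82% of mature cells against 13.2 and 11.5% of granule-rich cells. Of the gelatinase granule genes 0 of 7 were past 2-fold in level, against 7.42% higher and 4.58% lower of all genes. Mmp8 (neutrophil collagenase) was at 638 and 1016 CPM against 636 and 1046 CPM. Mmp9 (gelatinase B) was at 472 and 488 CPM against 439 and 488 CPM. After thinning to 2000 UMIs, however, more mature than granule-rich cells held a UMI of either gene. Mmp8 was in 54.6 and 57.4% against 38.9 and 38.7% of cells, and Mmp9 in 64.5 and 65.3% against 43.1 and 40.1%.

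Several effector and sensing lists held many genes that were higher in the mature class. Of 14 neutrophil-derived cytokine genes, 8 were at least 2-fold higher than in granule-rich cells in both libraries and none lower, against 7.42% and 4.58% of all genes. The counts were 11 of 17 microbial sensing and activation genes, 16 of 27 interferon-stimulated genes, 8 of 14 regulators of the IL-1 and TNF response and 7 of 14 survival genes, with none of those lists holding a gene that was lower. Other lists were mixed, with 4 higher and 1 lower of 11 maturity genes, 3 and 1 of 9 chemoattractant receptor genes, 3 and 1 of 13 transcription factors, 3 and 2 of 8 stefin and protease inhibitor genes and 2 and 2 of 8 eicosanoid genes. Markers of other cells and of stress were higher too. The macrophage markers summed to 2330 and 2186 CPM against 976 and 1559 CPM in granule-rich cells (median log2 1.40 and 0.88), the monocyte markers had medians of 1.31 and 1.07, and 5 of 14 immediate early and heat shock genes were at least 2-fold higher and 0 lower (1.34 and 0.72). The survival list had medians of 1.33 and 1.02, and members at the C1q limit held 44.7 and 53.4% of the UMIs of the class. The part of these cells in the list counts was not tested. Acod1, which makes the antimicrobial metabolite itaconate, was at 2845 and 2460 CPM against 477 and 421 CPM, a ratio of 5.96 in WT and 5.84 in the mutant. Il1b was 5.89-fold and 5.10-fold higher, and Cxcl2, a ligand of CXCR2, was 4.07-fold and 3.32-fold higher. Cd101, a surface protein of mature neutrophils, was 6.06-fold and 6.25-fold higher, Aqp9, a water and glycerol channel, 8.28-fold and 5.89-fold, and Ifitm1, an interferon-induced membrane protein, 7.62-fold and 9.90-fold. Lypd6b, Sycp2, Sirpb1b and Mpzl3 stood beside them among the highest ratios, from 6.08-fold upward in each library.

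Left out of both neutrophil classes, the cells at the C1q limit took genes below the count minimum. Of 4238 genes then compared 620 were higher and 309 lower, and 312 and 216 of these were among the genes counted with all cells.

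Against C1q macrophages the mature neutrophils differed most in a short set of neutrophil products. Of 8615 genes, 470 (5.46%) were at least 2-fold higher and 264 (3.06%) at least 2-fold lower in both libraries. Hdc, the enzyme that makes histamine, was at 1279 and 1500 CPM against 41.5 and 58.9 CPM. Asprv1, an aspartic protease, was 48.6-fold and 57.9-fold higher, Rdh12, a retinol dehydrogenase, 36.1-fold and 39.9-fold, Mgam, a maltase-glucoamylase, 36.1-fold and 32.1-fold, and Retnlg 38.9-fold and 55.9-fold. The cystatin-family genes Stfa2l1 and Cstdc4 were among the 10 highest ratios too. On the lower side Marco, a scavenger receptor of macrophages, was at 1.39 and 1.92 CPM from 2 and 5 UMIs, against 37.6 and 27.8 CPM. Without the members at the C1q limit, 661 genes were higher and 1325 lower of 8374, of which 430 and 236 were among those counted with all members.

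Nearly every mature neutrophil held transcripts of IL-1β and CXCL2. After thinning to 2000 UMIs, which left 141 WT and 176 mutant cells and left out 22 and 32 shallower ones, Il1b had a UMI in 134 of 141 and 163 of 176 cells, or 95.04% (90.04 to 97.98%) and 92.6% (87.7 to 96.01%). In granule-rich neutrophils the thinned share was 29.9 and 47.3%, and in C1q macrophages 55.02 and 54.3%. In B lineage cells, where the transcript measures background, the share was 4.35 and 10.8%. Unthinned, the mature cells' shares were 96.9 and 91.3%, at a median depth of 4128 and 5905 UMIs against 5197 and 6849 UMIs in B lineage cells. Cxcl2 was found in 92.2 and 90.9% of thinned mature cells and in 6.09 and 12.05% of B lineage cells, and its shares were 37.5 and 51.3% in granule-rich neutrophils and 78.7 and 73.2% in C1q macrophages. Retnlg was in 76.6 and 83.0% of mature cells, in 57.6 and 50.7% of granule-rich neutrophils and in 5.22 and 3.61% of B lineage cells. Cxcr4, the receptor that holds neutrophils in the marrow, was in 30.5 and 19.9% of mature cells and in 34.8 and 30.1% of B lineage cells, which express this receptor themselves and so give no background for it.

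The cytokine output varied widely between single cells. Thinned to 2000 UMIs, a WT cell held a median of 40 UMIs over the 18 cytokine genes, from 10 at the 10th to 108 at the 90th percentile, and a mutant cell held 25.5, from 6 to 83. Over the 18 sensing and activation genes the medians were 30 and 23 UMIs, and over the 30 interferon-stimulated genes 13 and 10, with 90th percentiles of 56 and 37. Cells rich in cytokine transcripts were also rich in sensing transcripts, with a Spearman correlation across cells of 0.83 in WT and 0.80 in the mutant, while that of cytokine with interferon-stimulated transcripts was 0.50 and 0.54. Maturity genes and macrophage markers correlated at -0.32 and -0.36. These are descriptions over 141 and 176 cells of 1 library each, whose points share a total of 2000 UMIs.

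Between the genotypes, most genes of mature neutrophils were within 2-fold. Of 3297 genes with at least 200 UMIs over both libraries, 76 (2.31%) were at least 2-fold higher in the mutant and 34 (1.03%) at least 2-fold lower, and the median log2 ratio was 0.06. The balance turned with the cells, since 40 genes were higher and 64 lower without the cells at the C1q limit, of which 20 and 22 were among the 76 and 34, and 36 were higher and 45 lower in the 97 and 134 cells with Retnlg and under that limit, of which 14 and 20 were. The 14 neutrophil maturity genes had 0 past 2-fold and a median of 0.07, the 9 chemoattractant receptor genes 0 and 0.10, the 11 adhesion and homing genes 0 and -0.01, and the 7 gelatinase granule genes 0 and 0.01. The maturity list holds all 3 receptor genes of the rule and the chemoattractant receptor list holds Cxcr2, whose values the choice of cells partly fixed.

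**Figure D3:**
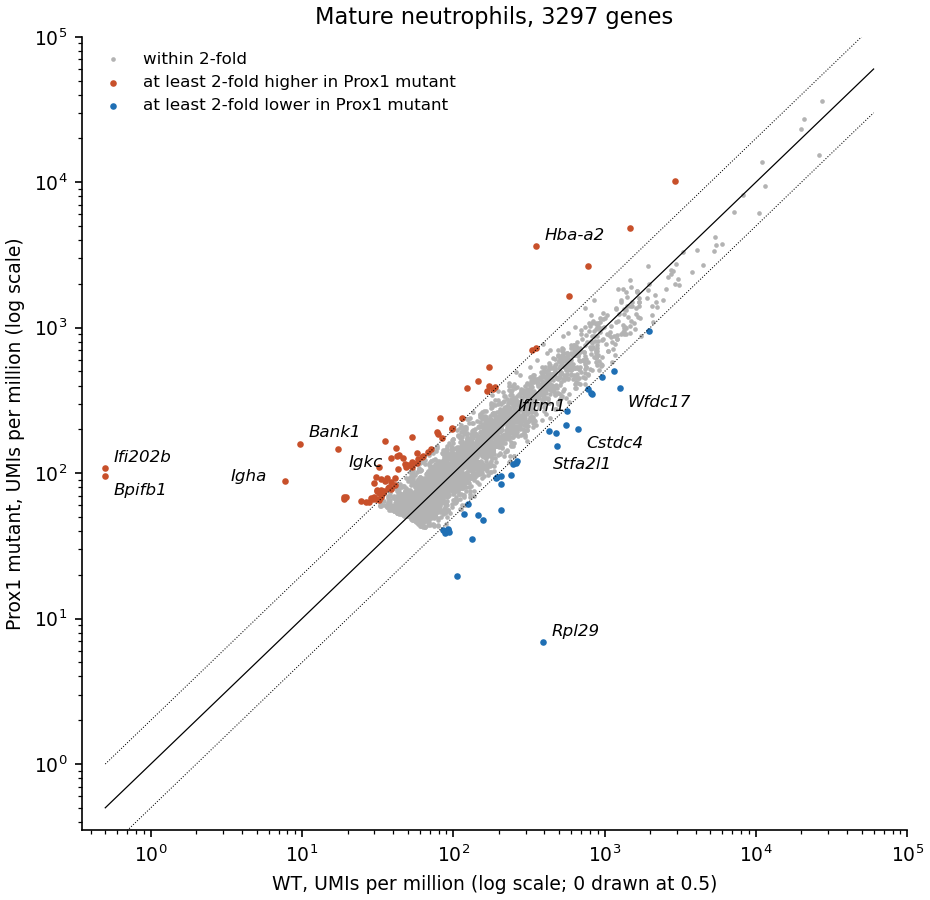
Level of each of 3297 genes in WT (x axis) and Prox1 mutant (y axis) mature neutrophils, in CPM on log axes, with 0 drawn at 0.5; the solid line marks equal levels and the dotted lines a 2-fold ratio. Orange points are the 76 genes at least 2-fold higher and blue points the 34 genes at least 2-fold lower in the mutant.

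Stefins and other protease inhibitors were the list with the most genes at least 2-fold lower in the mutant. Stefins are small cystatin-type proteins that block cysteine cathepsins in the cytosol, and the mouse holds a cluster of near copies on chromosome 16 that neutrophils transcribe. Of 6 genes of the list with at least 200 UMIs, 4 were at least 2-fold lower in the mutant and 0 higher, against 1.03% and 2.31% of all genes, with a list median of -1.34. Stfa2l1 was at 484 CPM (449 to 521) and 154 CPM (140 to 170), which is 3.14-fold lower (log2 -1.65, -1.83 to -1.47). Cstdc4 was at 668 CPM (627 to 712) and 201 CPM (184 to 219), 3.32-fold lower. Cstdc5, under the count minimum with 157 UMIs in WT and 0 in the mutant, was at 109 CPM and 0 and thus at least 94.7-fold lower against a floor of 3 UMIs. These 3 stefin genes were lower in the mutant library, by differing amounts, and for that shared direction their upstream sequences are shown.

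The 250 bases before each start (RefSeq, GRCm38.p6) lie at chr16:36156561-36156810 on the plus strand for Stfa2l1, chr16:36183962-36184211 on the plus strand for Cstdc4 and chr16:36367571-36367820 on the minus strand for Cstdc5. They are written 5′ to 3′ on the gene's strand, and capitals mark the runs of at least 12 letters that all 3 share:
Stfa2l1: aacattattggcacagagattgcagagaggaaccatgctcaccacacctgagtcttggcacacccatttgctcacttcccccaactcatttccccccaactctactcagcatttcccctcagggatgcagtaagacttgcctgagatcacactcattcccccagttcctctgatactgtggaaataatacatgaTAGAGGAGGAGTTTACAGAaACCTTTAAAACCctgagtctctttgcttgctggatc
Cstdc4: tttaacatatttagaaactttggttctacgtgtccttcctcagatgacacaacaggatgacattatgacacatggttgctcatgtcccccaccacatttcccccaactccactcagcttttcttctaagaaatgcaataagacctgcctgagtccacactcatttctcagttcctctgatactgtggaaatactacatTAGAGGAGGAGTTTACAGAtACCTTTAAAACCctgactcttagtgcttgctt
Cstdc5: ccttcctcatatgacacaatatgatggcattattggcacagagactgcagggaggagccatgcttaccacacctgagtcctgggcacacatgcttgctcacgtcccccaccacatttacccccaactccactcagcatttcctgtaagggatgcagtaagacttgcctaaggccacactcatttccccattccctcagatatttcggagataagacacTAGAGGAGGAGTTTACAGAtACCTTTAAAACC

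The first run, TAGAGGAGGAGTTTACAGA, was in 4 of 32851 such windows (0.0122%) on either strand, and the second, ACCTTTAAAACC, in 11 windows (0.0335%), among them the windows of all 6 stefin genes searched. The runs do not overlap and end close to the start, the second from 36 to 25 bases before it in Stfa2l1, 32 to 21 in Cstdc4 and 12 to 1 in Cstdc5. GENCODE M21 starts Cstdc5 further upstream, at base 36367748, so much of that window lies within its gene model there. Over the whole window Stfa2l1 was 72.6% identical to Cstdc4, 69.9% to Cstdc5 and 89.4% to Stfa2. A shared run is a description of letters and no evidence of a binding site. The transcripts are close copies as well, at 96.8% identity between Cstdc5 and Stfa1, 80.0% between Stfa2l1 and Stfa3 and 77.4% between Stfa2l1 and Cstdc4, so how reads were split among the copies is uncertain.

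The lower stefin level was seen as fewer positive cells too. After thinning, Stfa2l1 had a UMI in 54 of 141 cells of the WT library (38.3%, 30.2 to 46.9%) and 26 of 176 cells of the mutant (14.8%, 9.88 to 20.9%), and Cstdc4 in 56 (39.7%, 31.6 to 48.3%) and 26 (14.8%, 9.88 to 20.9%). In B lineage cells both were at 0% in both libraries. Other members of the cluster were sparse, with Stfa1 at 33 and 14 UMIs. The stefin list as a whole had a median of 14 UMIs per thinned WT cell and 6 per thinned mutant cell.

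Inhibitors outside the cluster did not move as a block. Wfdc17, a WAP-domain protein of activated phagocytes, was at 1255 CPM (1197 to 1314) and 384 CPM (361 to 409), with log2 -1.71, and its share of thinned positive cells was 70.9 and 42.0%. Cstb, the widely expressed cystatin B, was at 779 and 379 CPM (log2 -1.04), and at -0.86 without the top cell of each library. Slpi, the secretory leukocyte protease inhibitor, was at 1387 and 992 CPM (-0.48), and Wfdc21, another WAP-domain gene, at 576 and 924 CPM (0.68). Without the cells at the C1q limit these 4 genes stayed at least 2-fold lower, with Stfa2l1 at -1.74, Cstdc4 at -1.61, Wfdc17 at -1.82 and Cstb at -1.35. In granule-rich neutrophils the ratios were -1.21 for Stfa2l1, -2.68 for Cstdc4 and -1.30 for Wfdc17, and in C1q macrophages -0.25, -2.45 and -1.27, so all 3 were also at least 2-fold lower in granule-rich cells.

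**Figure D4:**
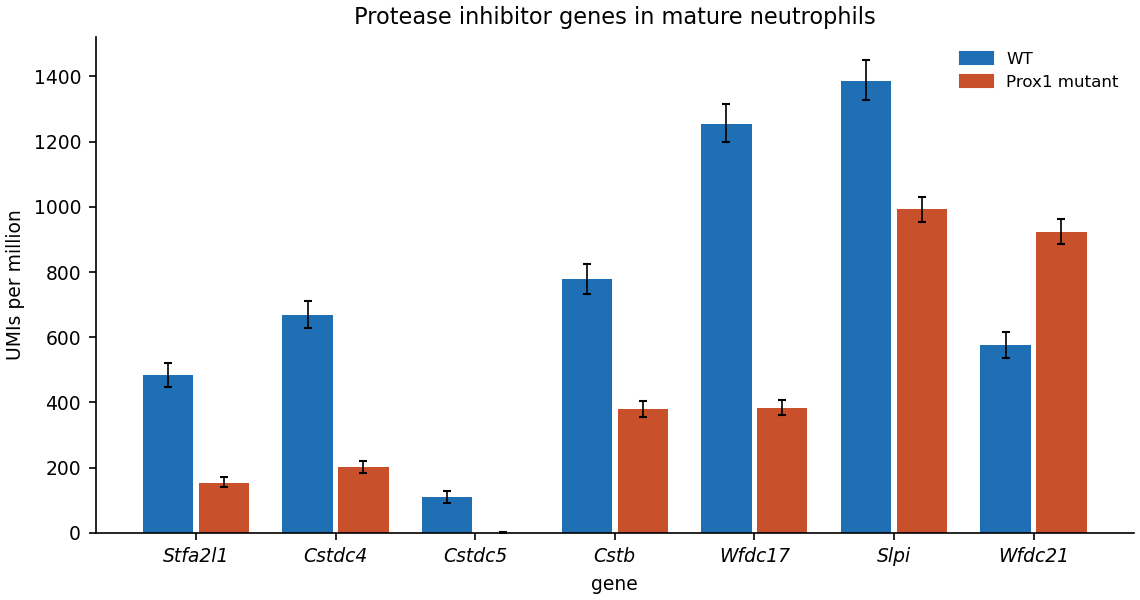
Levels in CPM of stefin and protease inhibitor genes in WT (blue) and Prox1 mutant (orange) mature neutrophils, with exact Poisson 95% intervals of the counts as error bars. Stfa2l1, Cstdc4, Cstdc5, Wfdc17 and Cstb are lower in the mutant and Wfdc21 is higher.

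The list median of the cytokine genes was -0.43 over 14 genes, and 1 gene (against 1.03% of all) was at least 2-fold lower. Ccl4, which encodes the chemokine MIP-1β, was at 954 CPM (904 to 1006) and 460 CPM (434 to 487) (log2 -1.05, -1.17 to -0.94), and was found in 42.6% (34.3 to 51.2%) and 23.9% (17.8 to 30.9%) of thinned cells. Ccl3, its neighbour that encodes MIP-1α, was at 354 and 215 CPM (-0.72). Cxcl2 was at 5942 and 3785 CPM (-0.65, -0.69 to -0.61) and Il1b at 5354 and 4178 CPM (-0.36, -0.40 to -0.32). Without the cells at the C1q limit, the list median was -0.10 and Il1b was at 6586 and 6262 CPM (-0.07), while Ccl4 stayed at -1.01 and Cxcl2 at -0.48. Other members were higher in the mutant, with Osm, oncostatin M, at 242 and 363 CPM (0.59, 0.41 to 0.77), and Il1rn, the IL-1 receptor antagonist, at 323 and 377 CPM (0.22, 0.06 to 0.39). Ccl6 was at 1168 and 774 CPM (-0.59).

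The 13 regulators of the IL-1 and TNF response had 0 past 2-fold, near the 2.31% higher and 1.03% lower of all genes, and a median of 0.10. Tnfaip2, a TNF-induced gene, was at 744 and 1366 CPM (0.88), Nfkbia, the NF-κB inhibitor, at 1895 and 1598 CPM (-0.25), and Nlrp3, the inflammasome sensor, at 890 and 882 CPM (-0.01). Among 16 microbial sensing genes 2 were at least 2-fold lower, against 1.03% of all genes, and 0 higher, with a median of -0.17. These were Clec4n, the fungal and mycobacterial lectin Dectin-2, at 558 CPM (520 to 598) and 216 CPM (198 to 234), and Tlr4, the lipopolysaccharide receptor, at 207 CPM (185 to 232) and 83.5 CPM (72.8 to 95.4). Without the cells at the C1q limit they remained past 2-fold, at -1.11 and -1.07. Clec4n was also lower in mutant granule-rich cells, at -0.98, and in C1q macrophages, at -1.49. Clec4d, the mycobacterial glycolipid receptor MCL, was at 1378 and 1324 CPM (-0.06), and Acod1 at 2845 and 2460 CPM (-0.21).

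Interferon-stimulated genes had 2 of 24 at least 2-fold lower, against 1.03% of all genes, 0 higher, against 2.31%, and a median of -0.32. Ifitm1 was at 831 CPM (785 to 880) and 350 CPM (327 to 373), a log2 ratio of -1.25, and was found in 58.9% (50.3 to 67.1%) and 36.9% (29.8 to 44.5%) of thinned cells, against 3.48 and 3.61% of B lineage cells. Isg20, an interferon-induced exonuclease, was at 118 and 52.7 CPM (-1.17), Isg15, the ubiquitin-like modifier, at 634 and 386 CPM (-0.72), and Ifitm3 at 1349 and 911 CPM (-0.57). Rsad2, which encodes the antiviral enzyme viperin, went the other way in level, at 233 and 394 CPM (0.76, 0.58 to 0.94). It was found in 34.8% (26.9 to 43.2%) and 38.6% (31.4 to 46.3%) of thinned cells, against 0 and 8.43% of B lineage cells. Members thus differed in the direction of their levels, and Ifitm1 was lower in mutant granule-rich cells as well, at -1.63.

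**Figure D5:**
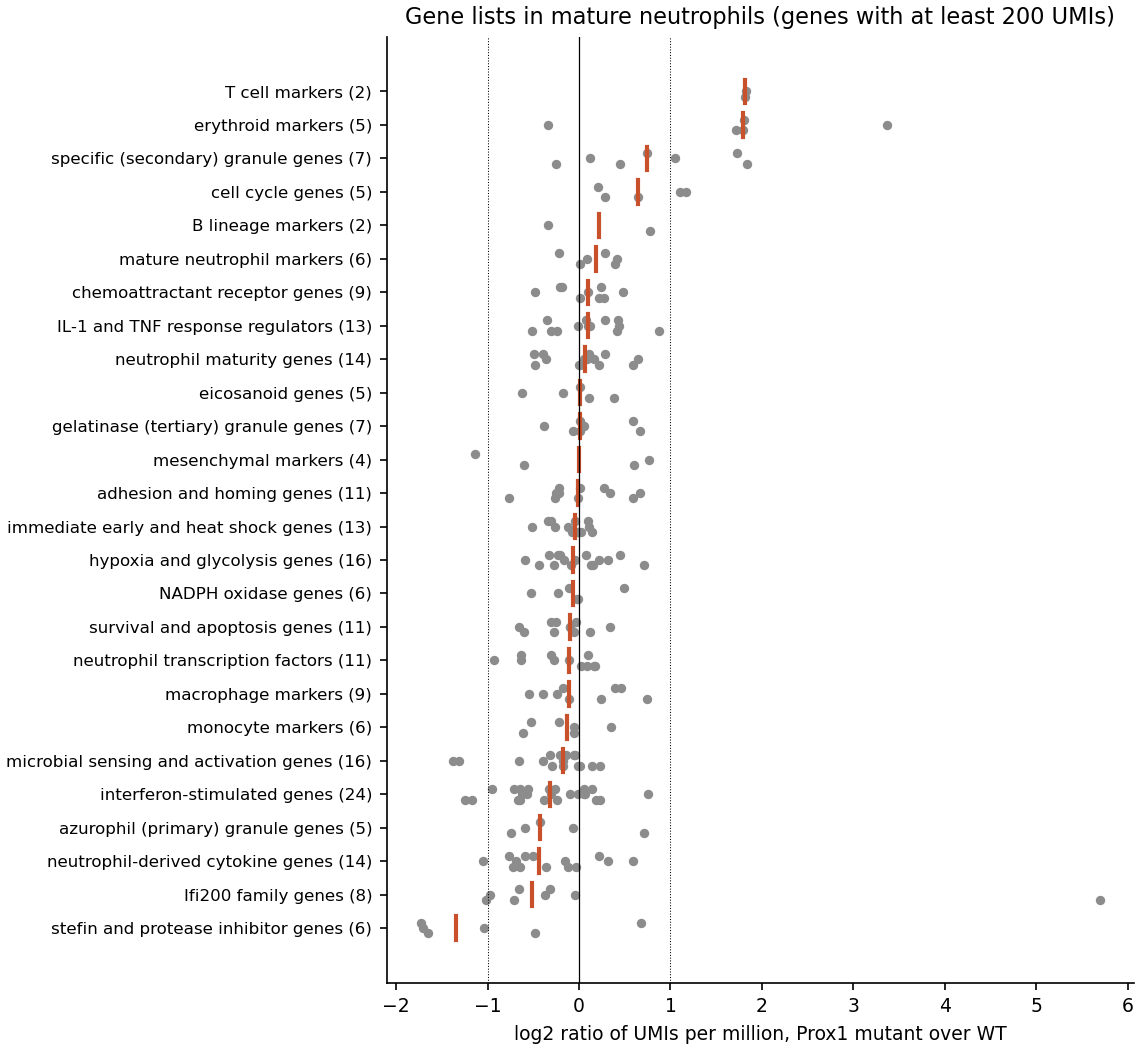
Log2 ratio of CPM, Prox1 mutant over WT, for each gene with at least 200 UMIs (points) in each gene list, in mature neutrophils, with the list's median as a bar. The stefin and protease inhibitor list has the lowest median, -1.34, and the Ifi202b point of the Ifi200 list is a lower bound set by a floor of 3 UMIs in WT.

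The Ifi200 family, interferon-inducible DNA sensors encoded side by side on chromosome 1, differed among themselves in direction. Ifi202b had 0 WT UMIs and 281 mutant UMIs in 48 cells, 0 and 108 CPM, and was thus at least 51.8-fold higher in the mutant. Of the 8 family genes compared it was the 1 past 2-fold higher and Mndal, at 125 and 61.6 CPM (-1.02, -1.33 to -0.70), the 1 past 2-fold lower, against 2.31% and 1.03% of all genes. Mndal was at -0.74 without the top cell of each library and at -0.98 without the cells of over 1% haemoglobin. Ifi203 was at 111 and 56.6 CPM (-0.98), Ifi207 at 184 and 113 CPM (-0.71) and Ifi204 at 221 and 140 CPM (-0.66), and the list median was -0.52. Without the cells at the C1q limit, Mndal, Ifi203 and Ifi207 were at -1.35, -1.39 and -1.48. Ifi202b starts 16.2 Mb from Prox1 on the same chromosome, at chr1:173962568-173982744 on the minus strand (GENCODE M21, GRCm38). It differed in the other classes too, with 0 and 295 UMIs in granule-rich cells, 1 and 2025 in C1q macrophages and 0 and 67 in B lineage cells.

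Rpl29 and Bpifb1 were nearly confined to 1 library each in every class compared. Rpl29, a protein of the large ribosomal subunit at chr9:106429454-106431568 on the plus strand, was at 393 CPM (361 to 426) and 6.93 CPM (4.11 to 10.9), from 564 and 18 UMIs (log2 -5.82). It had a UMI in 34.8% of thinned WT cells and in 0 of 176 thinned mutant cells. Without thinning, 53.4% of WT and 7.21% of mutant members held one. Its ratio was -6.00 in granule-rich cells, -5.35 in C1q macrophages and -5.75 in B lineage cells. Bpifb1, a secreted bactericidal/permeability-increasing fold protein at chr2:154190818-154220369 on the plus strand, had 0 WT and 248 mutant UMIs, spread over 115 cells, and was at least 45.7-fold higher in the mutant. It had 0 WT UMIs in the other 3 classes as well, against 765, 1618 and 104 mutant UMIs.

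Other genes with high ratios included haemoglobin and immunoglobulin genes. Of 5 erythroid markers compared 4 were past 2-fold higher, against 2.31% of all genes. Their list median was 1.79, and 3.99 as a mean of cell shares. Hba-a2, an α-globin, was at 351 and 3616 CPM (log2 3.37). The immunoglobulin genes Igkc (17.4 and 147 CPM, 3.08) and Igha (7.66 and 88.9 CPM, 3.54) were far higher in B lineage cells, where Igkc was at 18812 and 23128 CPM, and 103 of the 231 mutant Igha UMIs lay in 1 cell. Bank1, a B cell scaffold protein, was at 9.75 and 160 CPM (4.03), and its ratio was 2.12 in granule-rich cells and 3.42 in B lineage cells. Of the 2 B lineage markers compared none was past 2-fold, with Ebf1 at 255 and 201 CPM. Both T cell markers compared (2 of 2, median 1.82) were past 2-fold higher, and Skap1 (19.5 and 68.5 CPM, log2 1.81) lay in 3 WT and 17 mutant cells. Without the cells at the C1q limit, its log2 ratio was 0.10. Immp2l, a mitochondrial inner membrane peptidase, was at 35.5 and 166 CPM (2.22), and Kcnq5, a potassium channel, at 18.8 and 68.1 CPM (1.86), with 0.35 for Kcnq5 without the cells at the C1q limit. Whether these transcripts were made by the neutrophils was not tested.

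Other genes of the lower end were Atp6v0d2, a proton pump subunit of macrophages and osteoclasts, at 106 and 19.6 CPM (-2.43) from 14 and 9 cells, Hopx, a homeodomain cofactor, at 133 and 35.0 CPM (-1.92), and Tsc22d3, the glucocorticoid-induced leucine zipper, at 146 and 51.6 CPM (-1.50). The last was found in 90 WT and 64 mutant cells and was at -0.77 in granule-rich cells and -0.52 in C1q macrophages. Acta2, smooth muscle actin, was at 157 and 47.3 CPM (-1.73), with 100 of its 225 WT UMIs in 1 cell. H2-M2, a nonclassical MHC gene, was at 207 and 56.2 CPM (-1.88), with 140 of its 298 WT UMIs in 1 cell. Of 4 mesenchymal markers 1 was past 2-fold lower, against 1.03% of all genes, Col1a1 at 430 and 195 CPM (-1.14), which was at -0.26 without the top cells and 0.69 as a mean of cell shares.

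The 2 early granule genes Elane and Mpo had many of their UMIs in single cells. Of 575 WT and 693 mutant UMIs of Elane, neutrophil elastase, 560 and 525 came from 1 cell in each library, and of 129 and 381 UMIs of Mpo, myeloperoxidase, 122 and 182 did. Elane had a UMI in 0.709% of thinned WT cells and in 6.82% of mutant cells, against 1.74 and 3.61% of B lineage cells. The 5 azurophil granule genes compared had 0 past 2-fold and a median of -0.43, and without the cells at the C1q limit, Elane was at 723 and 14.9 CPM and the list median at -5.22. Of 7 specific granule genes 3 were at least 2-fold higher in the mutant, against 2.31% of all genes, and these were the rule genes Ltf, Camp and Ngp, on which the limit of 0.3% acts. Ngp, at log2 1.05, was at 0.91 without the cells of over 1% haemoglobin and at 0.49 without those at the C1q limit. Lcn2 was at 785 and 1072 CPM (0.45) and Chil3 at 281 and 305 CPM (0.12). Of 5 cell cycle genes 2 were past 2-fold higher, also against 2.31%, Top2a at 52.9 and 119 CPM in 7 and 29 cells, and Hist1h2ap at 34.1 and 73.1 CPM in 5 and 22 cells. After thinning, 109 of 141 WT and 120 of 176 mutant cells held no UMI of the 10 cell cycle genes.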

How the data were processed

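The data were 2 droplet single-cell RNA-seq libraries (10x Genomics, 3′ kit) of dissociated mouse TMJ, 1 per genotype. The authors deposited raw UMI counts per gene and cell barcode, which they made with Cell Ranger 7.0.1 on GRCm38 (mm10), and filtered barcodes with the same tool. The labels and the study's methods name different kit versions and digestion enzymes. The handling of introns and of doublets is not given in the sources used here. The count tables held 32285 genes, 5709 WT barcodes with 53517206 UMIs and 7846 mutant barcodes with 62446987 UMIs.

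Kept barcodes had at least 500 genes and under 10% UMIs of mt- genes, leaving medians of 6997 (WT) and 4848 (mutant) UMIs. Classes were set by the UMI limits given in the text, without clustering. The members and the gene lists were chosen with earlier results of these data known. Counts were summed over the cells of a class in each library and scaled to 1000000 UMIs (CPM). Genes needed at least 200 UMIs over both groups compared, and a ratio of at least 2 was counted. Intervals were exact Poisson, Clopper-Pearson, Newcombe or conditional binomial at 95%, and a count of 0 was set against a floor of 3 UMIs. For shares of cells, each cell was thinned to 2000 UMIs with a fixed seed. Named genes were the rule and marker genes, the 4 most abundant members of each list and members past 2-fold, and the 10 highest and 10 lowest ratios of each comparison. Genes named besides these (such as Osm, Rsad2, Tnfaip2, Cd101, Cstdc5, Ccl3 and the remaining Ifi200 genes) were chosen after their values were seen. Doublets were scored with Scrublet in scanpy 1.11.5 and left in. Alternatives changed the barcode filter, each limit, the scaling, the count minimum and the cells left out. The steps were tested on simulated data first. Python 3.11.15, numpy 2.4.6, scipy 1.17.1, pandas 2.3.3 and matplotlib 3.10.9 were used. Upstream sequences came from RefSeq (GRCm38.p6), gene positions and transcripts from GENCODE M21. Of the listed genes, Clec7a, Irg1, Mnda, BC100530, Gm5483 and BC117090 were not matched by name in the count tables. Some values are not reported here.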

Additional observations from a re-analysis of the deposited data

Results flagged for a closer look

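Barcodes that failed the filter on genes or mitochondrial UMIs took no part in the comparisons above, and some met the receptor, S100 and granule limits. In WT there were 10 such barcodes, 8 under 500 genes and 3 at 10% mitochondrial UMIs or over, and in the mutant 23, of which 22 fell short of the gene limit and 1 passed the mitochondrial one. The WT barcodes had a median of 732.5 UMIs, with Retnlg at 12952 CPM, S100a8 at 44552 CPM and Il1b at 5457 CPM. The mutant barcodes had a median of 644 UMIs, with Retnlg at 467 CPM, S100a8 at 7286 CPM and Il1b at 5745 CPM. Retnlg was thus far lower in the mutant barcodes than in the mutant mature neutrophils, on 10 UMIs in all, and in WT it was higher than in the mature neutrophils.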

How the results depend on the processing

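No paired analysis was possible because each genotype had 1 library and no test was made. The lower mature share among both neutrophil classes kept its sign under every alternative run to the cell rules, from -23.9 to -14.8 percentage points, except that with a barcode filter of 1000 genes and 5% mitochondrial UMIs it was -12.3. The difference in the share of kept cells, -0.132 points, was 0.911 points under that filter and 0.760 with a receptor limit of 2 UMIs, and from -0.808 to 0.283 under the others. For the share among both classes, the C1q and Retnlg alternatives changed the mature class only. The granule-rich class stayed at 156 and 454 cells, of which 18 and 109 were at the C1q limit. No alternative to that share left out the cells over 1% haemoglobin, which were 2 and 40 mature and 2 and 224 granule-rich cells. The share without these cells was not tested. The genes at least 2-fold higher (76) and lower (34) depended on the cells and on the count minimum. Without cells at the C1q limit there were 40 and 64 among 1710 genes, of which 20 and 22 were among those counted with all cells. With only Retnlg-positive cells under the C1q limit, an alternative chosen after seeing the data, 36 genes were higher and 45 lower, and with a granule limit of 1%, 85 and 54. As a mean of cell shares there were 131 and 68. With a minimum of 50 UMIs there were 318 and 137, with 500 UMIs 22 and 22, and with 1 UMI 1416 and 2906. The cause was not tested beyond the number of genes compared. Among the named genes, Col1a1 reversed, to 0.69 as a mean of cell shares, and no other named gene reversed under the 5 settings run for single genes, though 72 of 128 moved by more than their counting interval as a mean of cell shares and 24 without the top cell. Of 26 list medians, 16 moved by more than their counting interval as a mean of cell shares and 0 under the other scalings. List medians also moved with the cells at the C1q limit left out. They went from -0.43 to -5.22 for azurophil granule genes, from 1.82 to 0.39 for T cell markers and from -0.43 to -0.10 for cytokines. The median of maturity genes went from 0.07 to 0.27. Macrophage markers (-0.11 to 0.55) and B lineage markers (0.21 to -0.13) turned in sign. So did immediate early and heat shock genes (-0.05 to 0.09) and mesenchymal markers (-0.003 to 0.17). The mean of cell shares turned the medians of maturity genes (to -0.11) and chemoattractant receptor genes (to -0.21). It also turned those of gelatinase granule genes (to -0.01) and mesenchymal markers (to 0.60). With 163 and 208 cells, depth limits what can be said of genes under 200 UMIs, and differences between genotypes cannot be told apart from differences between libraries.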

Other observations

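In 4 further gene lists no member compared was past 2-fold between the libraries, against 2.31% higher and 1.03% lower of all genes. In lists this short, a count of 0 is near those shares and says little about them. The 6 NADPH oxidase genes, whose complex makes superoxide, had a median log2 ratio of -0.07, with Cybb at 1528 and 1501 CPM in WT and mutant, Cyba at 1203 and 837 CPM and Ncf1 at 336 and 471 CPM. The 16 hypoxia and glycolysis genes had a median of -0.07, with Hif1a at 473 and 527 CPM. The 5 eicosanoid genes had a median of 0.01, with Ptgs2, the inducible cyclooxygenase, at 417 and 420 CPM and Alox5ap, which serves leukotriene synthesis, at 806 and 522 CPM. The 11 survival and apoptosis genes had a median of -0.10, with Mcl1, the survival factor of neutrophils, at 1436 and 1186 CPM. Genes of these kinds outside the lists, picked after their values were seen, were past 2-fold, with Bcl2l1 at 192 and 92.4 CPM (log2 -1.06), Bcl2 at 24.4 and 63.9 CPM (1.39) and Tbxas1, thromboxane synthase, at 98.2 and 202 CPM (1.04).

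The 13 immediate early and heat shock genes, which respond to tissue dissociation as well as to activation, had a median of -0.05, with Junb at 1959 and 1985 CPM and Fos at 1628 and 1791 CPM. The 11 neutrophil transcription factors had a median of -0.11, with Cebpb, a factor of emergency granulopoiesis, at 2095 and 1096 CPM (-0.93, -1.01 to -0.86) and Spi1, the myeloid factor PU.1, at 457 and 484 CPM. The 6 monocyte markers had a median of -0.13. The 6 mature neutrophil markers had a median of 0.18, which includes the rule genes.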
